A study of Mus musculus with 16 samples.

Results

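The esophagus of mice that lacked Il13ra1 was compared with that of wild-type mice after both had been treated with the hapten oxazolone (OXA). A gene entered the comparison if its deposited normalized count was at least 5 in at least 4 of the 8 OXA libraries, which held for 15745 of 41411 genes in the table. At the edge of that rule, 551 genes reached 5 in exactly 4 libraries, with a median mean value of 6.34, and 568 reached it in exactly 3 and stayed out, with 4.89. Of the 551, 33 reached it in all 4 WT OXA libraries alone and 68 in all 4 Il13ra1-/- OXA libraries alone. Among those named below are Gsdmc2 and Mrgprg (WT OXA alone) and Flg, Serpinb13, Mmrn1 and Cd207 (Il13ra1-/- OXA alone). Such genes entered only through the group in which they were high, so their p-values are not independent of the rule. All mice were C57BL/6, and the 2 groups were WT_OXA (WT OXA below, 4 libraries) and Il13ra1-/- OXA (4 libraries). OXA is a contact sensitizer, here used to model eosinophilic esophagitis, an allergic inflammation of the esophagus marked by tissue eosinophils. WT and Il13ra1-/- mice given vehicle in place of OXA, with 4 libraries each, served as the background level. The RNA came from the esophagus as a whole, so that epithelium, muscle and stroma were read together, and it was sequenced as CEL-Seq libraries, whose short tags count the 3′ ends of transcripts. The labels gave no age, sex, batch or allele for the deletion, and did not say that the libraries were separate animals, so the p-values measure only the spread between these samples.

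IL-13 is the type 2 cytokine that drives the epithelial side of eosinophilic esophagitis. It binds the receptor chain encoded by Il13ra1, which recruits Il4ra to form the type II receptor, and JAK kinases on these chains activate the transcription factor Stat6. IL-4 can use this receptor too, but it also signals through Il4ra paired with Il2rg, the type I receptor, which does not need Il13ra1. In the squamous epithelium, keratinocytes divide in the basal layer, switch to other keratins as they move up, and at the surface build a cornified envelope from loricrin, late cornified envelope (Lce) proteins, small proline-rich (Sprr) proteins and filaggrin.

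Of the 8 promoters below, 7 belong to genes that passed, from the IL-13-associated, Sprr, filaggrin and SOCS groups, and Gbp2, from a group in which 0 genes passed, is shown beside them. They are reference sequence from RefSeq (GRCm38.p6), the 250 bases before the annotated start, 5′ to 3′ on the strand of the gene. Capitals mark every match, on either strand, to 4 short motifs. The Stat6-type motif is TTC and GAA with any 4 bases between them, the spacing preferred by Stat6, and the GAS-type motif is TTCNNNGAA, the gamma-activated spacing of other STAT factors. The interferon-type motif is GAAA and GAAA with any 2 bases between them, the core of an interferon-stimulated response element, and the AP-1-type motif is TGANTCA. Chil4 (chr3:106219480-106219729, minus strand), Sprr2a3 (chr3:92285054-92285303, plus strand), Sprr2d (chr3:92338890-92339139, plus strand), Sprr2e (chr3:92351893-92352142, plus strand) and Sprr2f (chr3:92364937-92365186, plus strand) were lower without Il13ra1. Flg (chr3:93273296-93273545, plus strand) was higher, Socs1 (chr16:10785537-10785786, minus strand) was lower, and Gbp2 (chr3:142620413-142620662, plus strand) did not pass the test.
Chil4: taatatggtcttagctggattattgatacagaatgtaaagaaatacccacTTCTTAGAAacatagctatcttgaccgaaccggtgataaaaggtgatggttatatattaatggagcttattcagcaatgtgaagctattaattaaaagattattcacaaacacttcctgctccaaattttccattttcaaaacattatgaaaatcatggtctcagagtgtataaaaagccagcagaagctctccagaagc
Sprr2a3: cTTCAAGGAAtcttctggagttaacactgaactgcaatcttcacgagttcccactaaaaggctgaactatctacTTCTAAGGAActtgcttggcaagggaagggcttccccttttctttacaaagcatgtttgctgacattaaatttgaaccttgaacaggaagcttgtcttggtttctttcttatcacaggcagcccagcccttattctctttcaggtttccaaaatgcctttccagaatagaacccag
Sprr2d: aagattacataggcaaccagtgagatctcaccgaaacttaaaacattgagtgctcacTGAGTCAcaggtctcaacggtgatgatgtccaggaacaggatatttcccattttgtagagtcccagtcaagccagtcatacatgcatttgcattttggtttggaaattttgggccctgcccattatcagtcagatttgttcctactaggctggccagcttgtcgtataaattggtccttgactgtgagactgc
Sprr2e: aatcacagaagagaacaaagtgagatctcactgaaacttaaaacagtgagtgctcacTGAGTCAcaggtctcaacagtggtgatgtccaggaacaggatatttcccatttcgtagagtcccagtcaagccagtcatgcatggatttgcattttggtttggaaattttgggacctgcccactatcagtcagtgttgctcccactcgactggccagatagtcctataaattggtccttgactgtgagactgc
Sprr2f: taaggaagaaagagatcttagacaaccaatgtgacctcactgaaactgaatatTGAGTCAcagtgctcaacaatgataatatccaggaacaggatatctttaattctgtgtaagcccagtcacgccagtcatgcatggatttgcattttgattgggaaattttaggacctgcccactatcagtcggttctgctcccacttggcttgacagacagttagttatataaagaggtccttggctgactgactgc
Flg: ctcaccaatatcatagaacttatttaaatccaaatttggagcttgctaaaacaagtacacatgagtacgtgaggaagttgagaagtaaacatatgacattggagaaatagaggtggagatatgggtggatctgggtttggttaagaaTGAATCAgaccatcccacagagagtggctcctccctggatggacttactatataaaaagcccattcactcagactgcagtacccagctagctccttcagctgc
Socs1: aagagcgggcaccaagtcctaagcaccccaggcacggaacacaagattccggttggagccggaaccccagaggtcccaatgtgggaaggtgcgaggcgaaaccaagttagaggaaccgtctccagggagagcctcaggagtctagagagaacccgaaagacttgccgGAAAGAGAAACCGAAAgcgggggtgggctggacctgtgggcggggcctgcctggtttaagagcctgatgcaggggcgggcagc
Gbp2: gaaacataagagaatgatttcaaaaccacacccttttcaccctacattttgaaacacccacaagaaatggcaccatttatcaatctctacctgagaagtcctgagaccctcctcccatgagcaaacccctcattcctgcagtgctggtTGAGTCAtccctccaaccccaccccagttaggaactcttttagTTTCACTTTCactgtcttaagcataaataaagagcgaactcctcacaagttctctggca
Chil4 held a GAS-type match 200 bases before its start and no Stat6-type match in this window. Sprr2a3 held a Stat6-type match at -176 and a GAS-type match at -249. Sprr2d, Sprr2e and Sprr2f shared 1 AP-1-type match, at -193, -193 and -197, in sequences that were otherwise close: Sprr2d and Sprr2e were identical at 220 of 250 bases (88.0%), and Sprr2e and Sprr2f at 162 of 246 (65.9%). Flg held an AP-1-type match at -103. Socs1 held a pair of interferon-type matches that overlapped, at -83 and -77, and Gbp2 an interferon-type match at -59 and an AP-1-type match at -102.

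Il13ra1 itself (GRCm38 chromosome X, 36112110 to 36171259) was read at 584, 673, 752 and 874 in the 4 WT OXA libraries and at 44.0, 174, 68.1 and 110.3 in the 4 Il13ra1-/- OXA libraries. Under vehicle the values were 207, 226, 197 and 134 in WT and 31.2, 64.7, 48.7 and 55.8 in Il13ra1-/-. The groups did not overlap under either treatment, and the log2 fold change between the genotypes under OXA, on the log2(value + 1) scale used throughout, was -3.02 ± 0.32 (SE), with an adjusted p of 1.23e-06 in limma. The sequenced 3′ end need not fall within the deletion, and if it does not, these values check nothing about it.

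The OXA libraries of the 2 genotypes differed in depth. Reads recovered from the deposited values came to 23.3 ± 3.64 M (SD, n = 4) in WT OXA, with a range of 20.2 to 27.3, and to 11.6 ± 2.71 M in Il13ra1-/- OXA, with a range of 8.82 to 15.2 (exact permutation test over 70 assignments, two-sided, p = 0.0286, the smallest it can give). The share of mitochondrial rRNA was 0.453% ± 0.0063 and 0.776% ± 0.273 (same exact permutation test, p = 0.0286), and a single keratin, Krt4, took 3.62% ± 0.758 and 10.2% ± 2.23 of all reads. With the 8 OXA libraries fitted alone 4592 genes passed in place of 4662, and with each of them thinned to 8.82 M reads 4386 did. Il13ra1-/- OXA replicate 4 stood apart: 23730 genes had a read in it against 16954 to 18278 in the other 3, and 4711 genes had a read there and in none of those 3, with a median of 3 reads. Of these genes 22 were among the tested ones. Without that library and WT OXA replicate 1, which had the most genes of its group (21763), 4169 genes passed (these are called the 2 gene-rich libraries below). Where a count of 3 or more listed genes moved by over 1.5 times without both, the count is given with the result. For the gene lists below, small counts were soft: of 33 counts of 1 or 2 genes, 24 changed when a single library was left out, within a range of 0 to 5.

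Of 15745 genes, 2456 (15.6%) were higher and 2206 (14%) lower in Il13ra1-/- OXA than in WT OXA (limma, Benjamini-Hochberg adjusted p under 0.05), so that 29.6% of all genes passed (39.7% at an unadjusted p under 0.05). In 30.8% of genes the groups did not overlap, with Il13ra1-/- OXA above WT OXA in 14.6% and below it in 16.2%. Of the 4662 genes that passed, 2192 moved by 2-fold or more and 91 by 16-fold or more. At least 4-fold higher were 304 (1.93% of all genes tested), and at least 4-fold lower 262 (1.66%). The median over all genes was -0.06 on the log2 scale. That balance rested on the deposited size factors: with equal library totals the median of all genes was -0.46, a shift of -0.40, and 1259 genes passed as higher and 5162 as lower, so that 19.6% of calls were higher in place of 52.7%. Directions below are relative to the deposited scaling, and a list whose median changed sign with equal totals is named as such. The plot of fold change against level shows the genes named first in each direction.

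**Figure D1:**
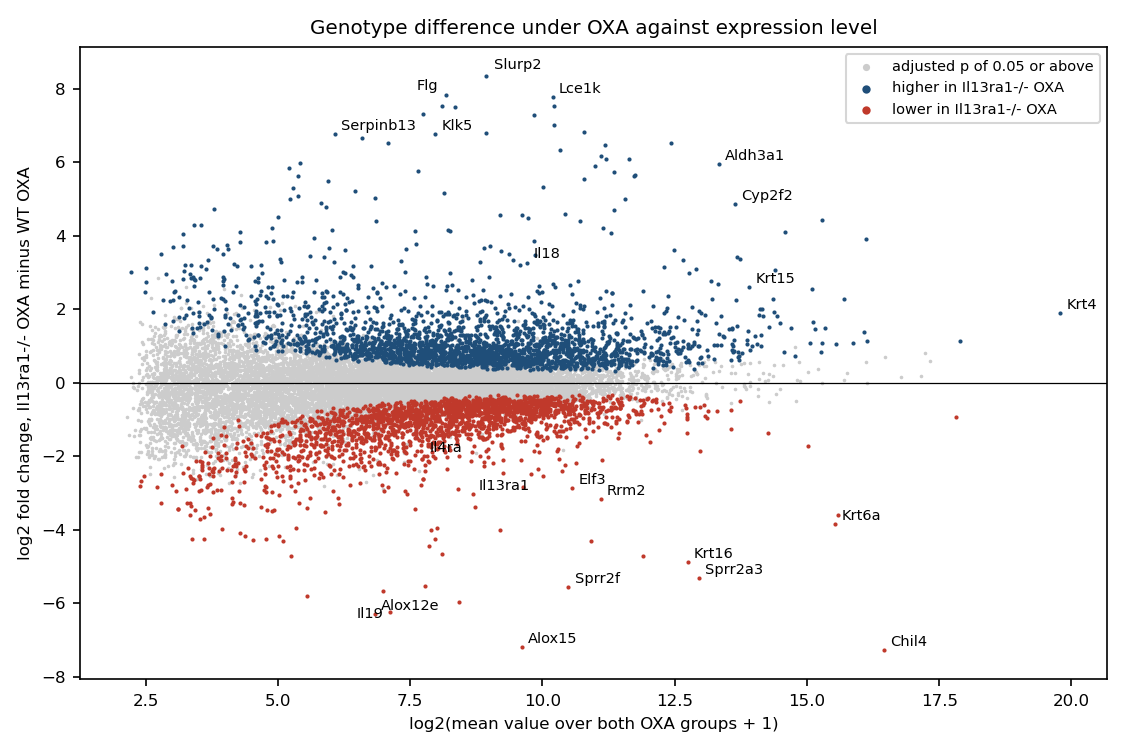
Log2 fold change of Il13ra1-/- OXA over WT OXA (vertical axis) against log2 of the mean value over both OXA groups plus 1 (horizontal axis), 1 point per tested gene; blue genes were higher (2456), red genes lower (2206) and grey genes did not pass. Chil4 and Alox15 lie lowest, at -7.28 and -7.18, and Slurp2 lies highest, at 8.35.

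Known products of epithelium exposed to IL-13 were among the genes that fell furthest in the absence of Il13ra1. Chil4, a chitinase-like protein secreted by epithelium under type 2 cytokines (GRCm38 chromosome 3, 106201490 to 106219507), was at 83678, 225806, 184630.3 and 221850.0 in WT OXA and at 1683, 4308, 658 and 279 in Il13ra1-/- OXA. No value of either group came near the other, and within the Il13ra1-/- libraries replicate 2 was far above replicate 4. The log2 fold change was -7.28 ± 0.73, adjusted p = 4.7e-07. Alox15, the lipoxygenase that oxidizes arachidonate and linoleate and is a marker of the human disease, was at 633, 2304, 2466 and 812 and at 14.7, 5.95, 13.6 and 3.15 (-7.18 ± 1.01, adjusted p = 2.86e-05). WT OXA replicates 2 and 3 were high and replicates 1 and 4 lower. All lay above every Il13ra1-/- library, which the rule required of genes named for their size. Alox12e, another lipoxygenase of epithelium, was at 129, 303, 334 and 119.9 and at 18.3, 1.19, 0 and 0 (-6.29 ± 0.85, adjusted p = 1.84e-05), and in Il13ra1-/- OXA only replicate 1 was above 2. Il19, an IL-20 subfamily cytokine made by keratinocytes and macrophages, was at 368, 179, 335 and 212 and at 12.8, 1.19, 0 and 3.94 (-6.23 ± 0.77, adjusted p = 6.69e-06).

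None of these 4 genes passed between Il13ra1-/- OXA and Il13ra1-/- vehicle. Chil4 averaged 1397 in WT vehicle and 436 in Il13ra1-/- vehicle, and its change from vehicle to OXA was 7.42 in WT (adjusted p = 3.51e-07) and 1.46 in Il13ra1-/- (adjusted p = 0.361). Alox15 changed by 6.66 in WT and 0.29 in Il13ra1-/- (adjusted p = 0.926), and for Alox12e and Il19, with 3 reads or fewer in each vehicle group, no change is given (adjusted p of 0.631 and 0.278 in Il13ra1-/-). Each such pair shares its OXA libraries with the genotype comparison and is given beside it as levels only. Over all tested genes, 5732 (36.4%) passed between WT OXA and WT vehicle, of which 3062 (19.4%) were higher and 2670 (17.0%) lower with OXA. Between Il13ra1-/- OXA and Il13ra1-/- vehicle 329 (2.09%) passed, 313 (1.99%) higher and 16 (0.102%) lower. Vehicle libraries held 5.61 to 9.55 M reads in WT and 7.91 to 16.5 M in Il13ra1-/-. Those of WT OXA held 20.2 to 27.3 M and those of Il13ra1-/- OXA 8.82 to 15.2 M. The WT pair thus differed more in depth, whose part in these counts was not tested. Between the genotypes under vehicle 9 (0.0572%) passed, 6 (0.0381%) higher and 3 (0.0191%) lower. The genotype difference itself changed with OXA (the interaction of both) in 3017 genes (19.2%), 1717 (10.9%) upward and 1300 (8.26%) downward. With equal library totals these became 897 and 3542.

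Other genes far lower in Il13ra1-/- OXA came from several families. Gsdmc2, a pore-forming gasdermin, was at 72.6, 272, 448 and 195 in WT OXA and at 3.67, 2.38, 2.48 and 3.94 in Il13ra1-/- OXA (-5.66 ± 0.76, adjusted p = 1.6e-05). Mrgprg, an orphan receptor of the Mas-related family, was at 124, 85.2, 135 and 22.1 and at 0, 0, 2.48 and 0, where the single value above 0 stands for 2 reads, so no fold is given (adjusted p = 9.89e-06). Igha, the constant region of IgA, was at 397, 598, 494 and 199 and at 45.8, 14.3, 1.24 and 2.36 (-5.52 ± 0.94, adjusted p = 0.000204). Nat8l, which makes N-acetylaspartate, was at 528 ± 107 in WT OXA and 21.7 ± 11.1 in Il13ra1-/- OXA (-4.67 ± 0.75). Mlph, the adaptor that ties granules to myosin, was at 72.0 ± 53.0 in WT OXA and 2.17 ± 2.53 in Il13ra1-/- OXA (-4.71 ± 0.83). Genes named for their size were required to have groups that did not overlap. Gsdmc2 and Chil4 have close copies beside them in the genome that could share their reads.

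**Figure D2:**
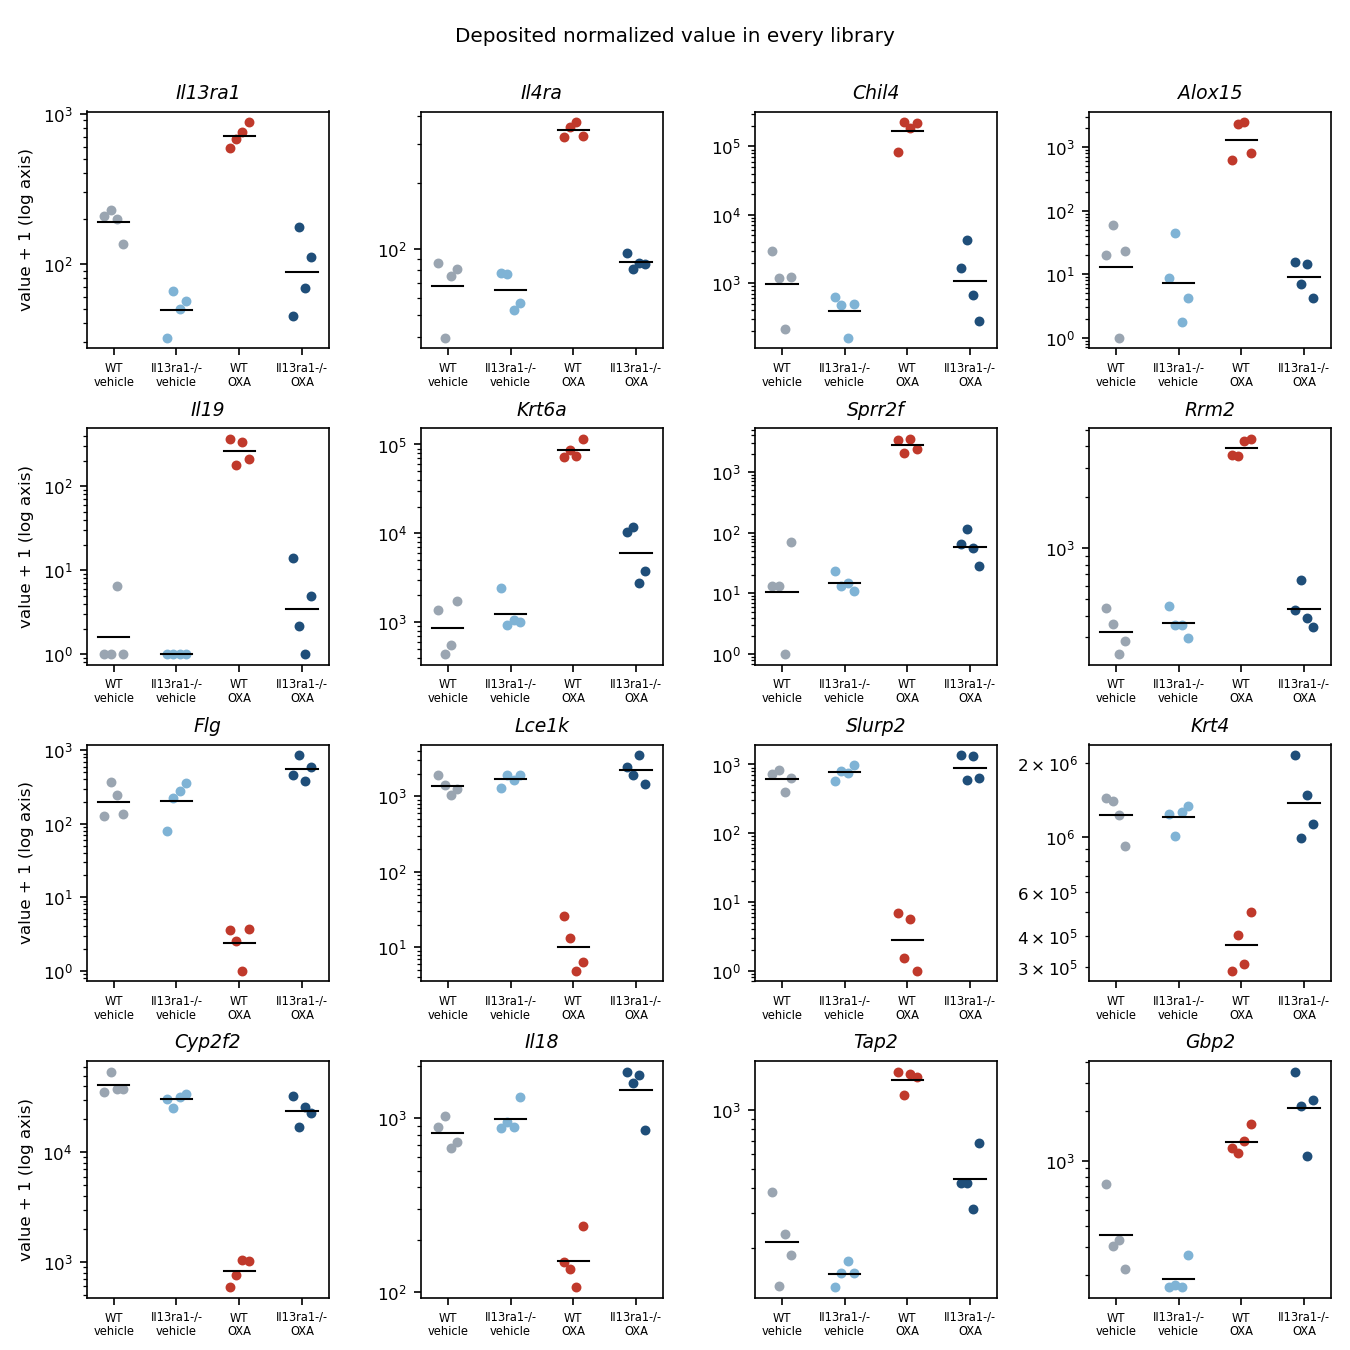
Deposited value plus 1 of 16 genes in every library (vertical axis, log scale), by group; points are libraries and bars the geometric mean of value plus 1. In the upper 2 rows WT OXA stands above the other groups, in the genes from Flg to Il18 WT OXA stands below them, and in Gbp2 both OXA groups stand above both vehicle groups.

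Of the receptor itself and its signalling chain, 8 genes were tested, of which 1 was higher and 4 were lower (median -1.10). Il4ra, the signalling chain shared by both receptors, was at 323, 357, 375 and 325 in WT OXA and at 95.3, 79.8, 85.4 and 84.3 in Il13ra1-/- OXA, tight in both groups (-1.99 ± 0.24, adjusted p = 4.45e-06). Il13ra2, the high-affinity IL-13 receptor known as a decoy and as a target of IL-13, was at 8.71, 12.8, 20.4 and 25.9 and at 0, 0, 0 and 6.30, the last from 8 reads (-3.34 ± 0.85, adjusted p = 0.00541). The kinase gene Tyk2 was lower by a smaller step (-0.91 ± 0.22, adjusted p = 0.00426), while Jak1 stood at 0.18 ± 0.15 and Jak2 at 0.03 ± 0.17 (adjusted p of 0.387 and 0.931), with signs that turned under both other scalings. Stat6 was the member that was higher: 784, 763, 809 and 913 against 1608, 1209, 1156 and 1057 (0.61 ± 0.14, adjusted p = 0.00318). With equal library totals the Stat6 difference was 0.19 and did not pass (adjusted p = 0.218). Il2rg, the partner of Il4ra in the type I receptor, is listed at 0 in all 16 libraries and gives no level.

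The cytokines that act on these receptors were near or under the filter. Il4, Il5 and Il13 averaged 2.92, 4.27 and 2.81 in WT OXA and 2.67, 3.24 and 4.53 in Il13ra1-/- OXA, from at most 45 reads per group, and were not tested. Of 4 cytokines, alarmins and their receptors that were tested, 0 passed in limma (0 at an unadjusted p under 0.05, and 0 with edgeR or DESeq2). Il33, an alarmin released by damaged epithelium, was at 1667 ± 350.0 in WT OXA and 1272 ± 367 in Il13ra1-/- OXA (-0.42 ± 0.21, adjusted p = 0.146), and Tslp, another epithelial alarmin, at 29.9 ± 7.70 in WT OXA and 23.5 ± 4.50 in Il13ra1-/- OXA (-0.32 ± 0.40, adjusted p = 0.589). The median of the 4 was -0.46, and with equal library totals 2 of the 4 were lower, Il33 among them (-0.83, adjusted p = 0.00142), which was lower with quantile normalization too (-0.59, adjusted p = 0.0201).

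The wider list of genes known to answer IL-4 and IL-13, which holds Chil4, Alox15 and Alox12e, split. Of 24 tested, 6 were lower and 3 higher (37.5% called, near the 29.6% of all genes), with a median of -0.81. With equal library totals 11 were lower and 0 higher, and with quantile normalization 7 were lower and 3 higher. The split was thus lost under 1 of these 2 scalings. Ccl11, eotaxin-1, the attractant of eosinophils, was at 515, 869, 859 and 866 in WT OXA and at 433, 309.6, 342 and 237 in Il13ra1-/- OXA (-1.23 ± 0.21, adjusted p = 0.000156). Retnla, a marker of alternatively activated macrophages, stood at 4449.7, 7511, 10066 and 5609.7 and 7642, 7666, 6417 and 3272, with groups that overlapped (-0.15 ± 0.25, adjusted p = 0.683), and its sign turned without WT OXA replicate 3 (0.05) and without Il13ra1-/- OXA replicate 4 (0.13), while with quantile normalization it passed as lower (-0.69, adjusted p = 0.0329). Mgl2, a lectin of alternatively activated macrophages, was higher (0.79 ± 0.25, adjusted p = 0.0212), as was Serpinb2 (0.84 ± 0.28, adjusted p = 0.0283). Both calls were lost with equal totals (0.38 and 0.43, adjusted p of 0.254 and 0.229) and under 6 other alternatives each. Arg1, arginase 1, stood at 0.64 ± 0.25, adjusted p = 0.0542, and Ccl24, eotaxin-2, at 1.08 ± 0.44, adjusted p = 0.0714. Both passed as higher with edgeR (adjusted p of 0.0364 and 0.0352), DESeq2 (0.0175 and 0.013) and array weights (0.0263 and 0.0384), and without Il13ra1-/- OXA replicate 4 (0.00294 and 0.00828). Without Il13ra1-/- OXA replicate 4, 6 of the 24 were higher. Without WT OXA replicate 1 0 were, and 1 was without WT OXA replicate 4 or Il13ra1-/- OXA replicate 1 or 2. With thinned reads, 2 were higher and 10 lower. Against its own vehicle, Il13ra1-/- OXA was higher for 8 of the 24, among them Retnla (1.76, adjusted p = 0.000246), the monocyte attractant Ccl8 (5.42, adjusted p = 9.66e-08) and the mannose receptor Mrc1 (1.14, adjusted p = 0.00325), which are expressed by macrophages. WT OXA was higher than its vehicle for 15. Of the SOCS genes, which brake cytokine receptors, 3 of 8 were lower and 0 higher (6 lower with equal totals). Socs1 was at 703, 658, 711 and 712 and 369, 239, 115 and 330.1 (-1.53 ± 0.31, adjusted p = 0.000923), while Cish, a target of STAT signalling, stood at 0.46 ± 0.24, adjusted p = 0.165 (0.66, adjusted p = 0.0428, without Il13ra1-/- OXA replicate 1).

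Keratins of wounded and hyperproliferative epithelium were lower together. All 4 tested members fell, with a median of -3.92. Krt6a, expressed in suprabasal cells of activated epithelium, was at 72498, 87066, 74305 and 115909 in WT OXA and at 10398, 11746, 2768 and 3723 in Il13ra1-/- OXA (-3.85 ± 0.46, adjusted p = 4.27e-06). Replicates 1 and 2 of Il13ra1-/- were above replicates 3 and 4, and all 4 lay below WT OXA. Krt16, its type I partner, was at 16555, 10327, 5998 and 19839 and 677, 1217, 100.3 and 318 (-4.89 ± 0.77, adjusted p = 9.02e-05), Krt17 at 1099 ± 479 in WT OXA and 76.0 ± 45.6 in Il13ra1-/- OXA (-3.99 ± 0.44), and Krt6b at 85657 ± 33945 in WT OXA and 12189 ± 12649 in Il13ra1-/- OXA (-3.61 ± 0.61). Krt6a and Krt6b are close copies, and the split of reads between them is uncertain. Unlike Chil4, Krt6a and Krt6b were above vehicle in Il13ra1-/- OXA as well, by 2.27 and 3.27 (adjusted p of 0.00904 and 0.00415), against 6.63 and 5.97 in WT.

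The keratins of the ordinary esophageal lining went mostly the other way. Of 12 tested, 8 were higher (5 without WT OXA replicate 2) and 1 lower, with a median of 1.30. Krt4, the main keratin of suprabasal esophageal cells, was at 290427, 404609.8, 309671 and 498260.0 in WT OXA and at 2141300.3, 989961, 1487276 and 1129114 in Il13ra1-/- OXA (1.90 ± 0.64, adjusted p = 0.0293). Krt13, its partner, was at 116771, 154558, 145126 and 178176 and 511527, 211516, 336715 and 303502 (1.14 ± 0.40, adjusted p = 0.0392). Neither call was firm. That of Krt4 was lost under 8 alternatives, with a log2 fold change of 0.40 under quantile normalization (adjusted p = 0.543). With the 8 OXA libraries alone it was 1.90 (adjusted p = 0.129) and, with these thinned, 1.92 (adjusted p = 0.162). The call of Krt13 was lost under 13 alternatives, with 0.73 at equal totals (adjusted p = 0.0544). Krt15, a keratin of resting basal cells, was at 2295, 4917, 5138 and 5197 and 39263, 17089, 23457 and 26108 (2.60 ± 0.28, adjusted p = 1.17e-06), and Krt78 was at 429 ± 154 in WT OXA and 2834 ± 554 in Il13ra1-/- OXA (2.77 ± 0.21). Krt14 was the member that fell, from 12580.0, 10526, 10949 and 15787 to 5701, 3014, 2799.9 and 2847 (-1.85 ± 0.20, adjusted p = 1.75e-06), and Krt5, the type II keratin with which it pairs in basal cells, stood at 16918 ± 3490.5 in WT OXA and 17894 ± 2199.8 in Il13ra1-/- OXA (0.10 ± 0.22, adjusted p = 0.784). The sign of Krt5 turned with equal totals (-0.32, adjusted p = 0.255), and with quantile normalization it passed as lower (-0.58, adjusted p = 0.0487). Markers of squamous esophagus were present: Krt4 had the most reads of any gene in 15 of the 16 libraries, Krt5, Krt14, Krt15, Krt13, Trp63 and Ly6d were read in every OXA library, and Sox2 is listed at 0 in all of them. Smooth muscle markers (12 tested, 0 passed in limma, 2 at an unadjusted p under 0.05, 0 with edgeR and 1 with DESeq2, with a median of 0.08 that turned to -0.33 with equal totals, where 4 were lower, and to -0.08 with quantile normalization, where 2 were) and skeletal muscle markers (27 tested, 7 higher and 2 lower, with a median of 0.01 that turned to -0.40 with equal totals and to -0.35 with quantile normalization, where 4 were higher and 5 lower) were present too, the latter summing to 193836 to 377618 in WT OXA and from 256200.1 to 425887 in Il13ra1-/- OXA.

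The small proline-rich genes fell and the late cornified envelope genes rose, although they lie side by side. Both belong to the epidermal differentiation complex, a block on chromosome 3 (GRCm38, 90514435 to 93564643, from S100a13 to S100a10), in which 60 of 92 genes were tested, 35 were higher and 12 lower, so that 78.3% passed. Of these, 30 were at least 4-fold higher and 8 at least 4-fold lower. From 1.77 to 1.97 Mb into the block lay the 12 tested Sprr genes, of which 10 were lower and 1, Sprr3, higher (median -3.18). From 2.13 to 2.50 Mb lay 20 tested Lce genes, of which 20 were higher (median 5.68). In the plot of the complex the sign of the difference switches between these 2 runs of genes.

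**Figure D3:**
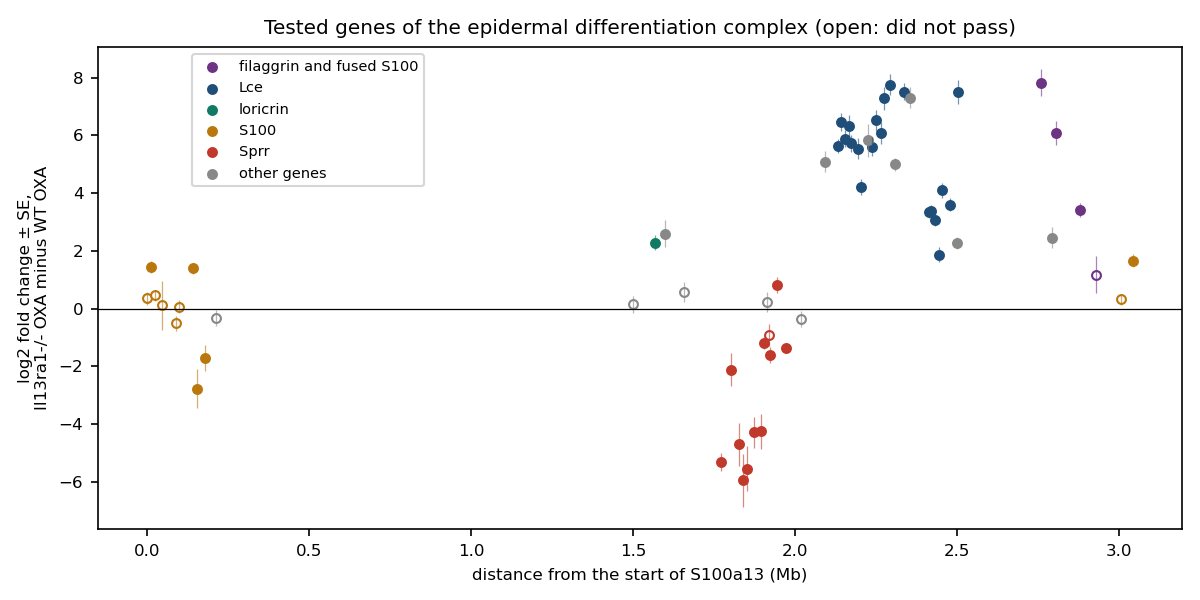
Log2 fold change (± SE) of Il13ra1-/- OXA over WT OXA for the 60 tested genes of the epidermal differentiation complex (vertical axis), by distance in Mb from the start of S100a13 (horizontal axis); filled points passed and open points did not. The Sprr genes lie mostly below 0 and the 20 Lce genes above it.

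Sprr2a3 was at 10542, 16722, 19618 and 15162 in WT OXA and at 864, 301, 283 and 279 in Il13ra1-/- OXA (-5.32 ± 0.30, adjusted p = 1.47e-10), with replicate 1 the highest of the Il13ra1-/- libraries. Sprr2f was at 3308, 2039, 3529.6 and 2371 and 64.2, 113, 55.7 and 26.8 (-5.55 ± 0.79, adjusted p = 3.09e-05). Sprr2e (668 to 20.8, -5.96 ± 0.93), Sprr2d (7088 to 610.0, -4.71 ± 0.75) and Sprr2h (3638 to 219, -4.29 ± 0.53) fell as well, each pair giving the means of WT OXA and Il13ra1-/- OXA. Sprr1a and Sprr1b, at 7855 and 886 in WT vehicle, fell by 1.37 ± 0.18 and 1.62 ± 0.27 on the log2 scale. Sprr3, a major cornified protein of the esophagus, was at 27556 ± 2627 in WT OXA and 51472 ± 21076 in Il13ra1-/- OXA (0.83 ± 0.28, adjusted p = 0.0314), a call that was lost under 10 alternatives: with equal totals, quantile normalization, no filter, the 8 OXA libraries alone and thinned reads, and without WT OXA replicate 1, 2 or 3 or Il13ra1-/- OXA replicate 1 or 3. Sprr2 genes are near-copies of each other, so reads may have been split among them. In Il13ra1-/- OXA, Sprr2d and Sprr2h stood above vehicle, by 3.87 and 2.21 (adjusted p of 0.00544 and 0.0314), and Sprr2a3 stood at 0.17 (adjusted p = 0.847).

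Of 30 late cornified envelope and crosslinking genes tested, 29 were higher and 0 lower, with a median of 3.85. Lce1k was at 24.7, 12.3, 3.92 and 5.40 in WT OXA and at 2479, 1902, 3496 and 1459.9 in Il13ra1-/- OXA (7.76 ± 0.38, adjusted p = 2.27e-11), with a wide gap between the groups. Lce1l, Lce1m, Lce1j and Lce1h, also among the 14 genes with the largest rise, were higher by 7.51, 7.49, 7.29 and 6.52. Of the Lce3 genes, Lce3c rose from a mean of 4432 to 38488 (3.08 ± 0.23) and Lce3d from 383 to 1446 (1.86 ± 0.26). Lor, loricrin, the bulk protein of the envelope, was at 17339, 17024, 15989 and 20541 and 72599, 63093, 123443 and 97834 (2.29 ± 0.26, adjusted p = 2.21e-06). Of the transglutaminases that crosslink the envelope, Tgm3 rose (1.64 ± 0.25) and Tgm1 was the listed gene that did not pass (-0.28 ± 0.19, adjusted p = 0.279), and with equal totals it was lower (-0.69, adjusted p = 0.00378). Lce genes also are close copies.

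Flg, filaggrin, which bundles keratin in the outer layer, was at 2.54, 1.54, 0 and 2.70 in WT OXA, 15 reads in all, and at 458, 853, 385 and 596 in Il13ra1-/- OXA (7.83 ± 0.47, adjusted p = 3.33e-10). Hrnr, a filaggrin-like protein, was at 80.0 ± 53.8 in WT OXA and 4635 ± 1788 in Il13ra1-/- OXA (6.08 ± 0.41) and Rptn, repetin, at 2182 ± 446 in WT OXA and 24020.3 ± 8497 in Il13ra1-/- OXA (3.42 ± 0.26), while Tchh, trichohyalin, stood at 1.17 ± 0.65, adjusted p = 0.186. Under vehicle Flg averaged 220.0 in WT and 234 in Il13ra1-/-. Its change from vehicle to OXA was -6.38 in WT and 1.42 in Il13ra1-/- (adjusted p of 6.91e-09 and 0.151). Of the 30 cornified envelope genes, 27 fell and 1 rose with OXA in WT, and 0 fell and 1 rose in Il13ra1-/-.

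Slurp and Ly6 proteins and clade B serpins were higher as well. Slurp2, a small secreted protein of the Ly6 family that acts on acetylcholine receptors of keratinocytes, had the largest rise, from 5.81, 0.510, 4.71 and 0 in WT OXA to 1361, 593, 1309.6 and 625 in Il13ra1-/- OXA (8.35 ± 0.47, adjusted p = 1.53e-10). Slurp1, its relative, was at 43.2, 8.72, 6.67 and 22.1 and 3748, 1225, 2997 and 1473 (7.0 ± 0.43, adjusted p = 4.45e-10). Of 13 Slurp and Ly6 genes tested, 8 were higher and 0 lower. Of 13 clade B serpins, intracellular protease inhibitors, 11 were higher and 0 lower (median 1.23). Serpinb13 was at 114, 136, 172 and 109 in Il13ra1-/- OXA and had 3 reads in WT OXA, all in replicate 1 (adjusted p = 2.74e-11), and Serpinb7 was at 126 ± 66.8 in WT OXA and 2643 ± 597 in Il13ra1-/- OXA (4.58 ± 0.41). Klk5, the kallikrein that starts the protease cascade of the cornified layer, was at 4.72, 3.08, 0 and 17.8 and 529.9, 469, 533 and 451 (6.76 ± 0.52, adjusted p = 1.25e-08).

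Of 19 kallikreins, related proteases and their inhibitors, 7 were higher and 3 lower (7 and 6 with equal library totals). The median of 0.31 turned to -0.10 with equal library totals and to -0.02 with quantile normalization. Klk8 rose (2.46 ± 0.22) and Klk7 rose (1.20 ± 0.23), while Tmprss11b, a membrane serine protease, fell from 1751 ± 342 in WT OXA to 311 ± 99.2 in Il13ra1-/- OXA (-2.53 ± 0.22, adjusted p = 7.69e-08). The other genes with the largest rises were Tmem45a2 (2.85 to 542, 7.53 ± 0.49), Dapl1 (26.9 to 3496, 6.83 ± 0.28), Skint6 (9.74 to 973, 6.79 ± 0.39) and Lyg1, a lysozyme (1.14 to 189, 6.67 ± 0.49), each pair of values running from the mean of WT OXA to that of Il13ra1-/- OXA.

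Cell adhesion genes split. Of 14 desmosomal genes, 6 were higher and 5 lower (median -0.03; 4 and 6 with equal totals), and 3 were lower without WT OXA replicate 2 or 4 or Il13ra1-/- OXA replicate 2 or 3. Dsg1a and Dsc1, cadherins of the upper layers, were higher (2.09 ± 0.24 and 1.72 ± 0.28). Dsg3 and Dsc2 were lower (-1.23 ± 0.24 and -0.91 ± 0.16). Of 18 junction genes, 4 passed in each direction, which became 4 higher and 9 lower with equal totals. Cldn23 rose from 36.0 ± 10 in WT OXA to 303 ± 102 in Il13ra1-/- OXA (3.02 ± 0.26, adjusted p = 5.82e-08), and Cdh1, E-cadherin, was lower by a small step (-0.56 ± 0.13, adjusted p = 0.00229). Among epithelial transcription factors, Elf3, an epithelial ETS factor, was at 2789.7, 2582, 3185 and 2048 in WT OXA and 429, 342, 230.2 and 479 in Il13ra1-/- OXA (-2.87 ± 0.20, adjusted p = 2.05e-09). Grhl3, which is needed for barrier formation, was higher (0.94 ± 0.15, adjusted p = 9.83e-05). Trp63, the master factor of basal cells, stood at -0.22 ± 0.20, adjusted p = 0.449 (-0.63, adjusted p = 0.0219, with equal totals). In this list 5 of 23 were higher and 4 lower (2 and 10 with equal totals, 2 and 4 with quantile normalization), and its median of 0.13 turned to -0.29 with equal totals.

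IL-1 family genes were higher more often than lower (6 and 2 of 17), but 5 and 4 passed with equal totals, 6 and 4 with quantile normalization, and 8 and 1 without the 2 gene-rich libraries. The median of 0.34 turned to -0.07 with equal library totals. Il18, stored in keratinocytes as a precursor, was at 149, 135, 106 and 240.3 in WT OXA and 1848, 1603, 1781 and 860.4 in Il13ra1-/- OXA (3.27 ± 0.25, adjusted p = 1.1e-08). Il1r2, the decoy receptor for IL-1, was at 51.5, 63.6, 78.1 and 79.9 and 2567, 1151, 1764 and 1049 (4.49 ± 0.24, adjusted p = 7.36e-11). Il1f5, the antagonist of the IL-36 receptor, rose too (3.60 ± 0.33), and Il1rl2, that receptor, fell (-0.92 ± 0.19). In the IL-20 subfamily, Il20ra, a receptor chain for Il19, was lower with its ligand, at 446 ± 183 in WT OXA and 30.2 ± 23.5 in Il13ra1-/- OXA (-4.01 ± 0.84, adjusted p = 0.00124), and Il20rb, the other chain, was higher (0.72 ± 0.16, adjusted p = 0.00195), but not with equal totals (0.31, adjusted p = 0.149). Among the EGF family, 1 of 15 passed in each direction: Hbegf was lower (-1.60 ± 0.19, adjusted p = 3.16e-06) and Ereg higher (2.04 ± 0.27, adjusted p = 1.57e-05). With equal totals 5 were lower, among them Erbb2, a receptor of the family (-0.46, adjusted p = 0.0686, and -0.87, adjusted p = 0.00225, with equal totals), which also passed as lower with DESeq2 (-0.45, adjusted p = 0.0376), with array weights (-0.52, adjusted p = 0.0301) and without Il13ra1-/- OXA replicate 2 (-0.57, adjusted p = 0.0354). The gasdermins split likewise, with Gsdmc lower (-1.49 ± 0.28) and Gsdma higher (2.05 ± 0.23).

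Enzymes that clear aldehydes and foreign compounds were higher. Of 40 tested, 28 were higher and 3 lower (median 1.43; 29 and 1 without the 2 gene-rich libraries, 25 and 6 with equal totals). Aldh3a1, an aldehyde dehydrogenase of exposed epithelia, was at 411, 271, 218 and 361 in WT OXA and 15974, 11544, 31779 and 22171 in Il13ra1-/- OXA (5.95 ± 0.24, adjusted p = 2.25e-12). Cyp2f2, a cytochrome P450 best known from airway club cells, was at 589, 755, 1032 and 1014 and 32806, 17136, 25611 and 22882 (4.86 ± 0.22, adjusted p = 9.35e-12), against 41264 in WT vehicle and 30607 in Il13ra1-/- vehicle. Of 11 airway markers 2 were tested, and both were higher: besides Cyp2f2 this was Scgb1a1, the defining club cell gene, at 10.9 ± 9.31 in WT OXA and 35.5 ± 8.32 in Il13ra1-/- OXA (1.90 ± 0.50, adjusted p = 0.00658). Aldh1a3, which makes retinoic acid, was the listed gene that fell most, at 483 ± 169 in WT OXA and 30.5 ± 11.1 in Il13ra1-/- OXA (-3.94 ± 0.45, adjusted p = 2.65e-06). Lipid enzymes of the barrier included Aloxe3 and Alox12b, the lipoxygenases of the epidermal lipid envelope, which rose (2.02 ± 0.21 and 1.63 ± 0.19) while Alox15 and Alox12e fell. Of 16 arachidonate lipoxygenases and prostanoid enzymes, 6 were higher and 3 lower (4 and 5 with equal totals), and the median of 0.36 turned to -0.05 with equal totals. Of 39 genes of lipid synthesis, 17 were higher and 4 lower (2 lower without WT OXA replicate 4 or Il13ra1-/- OXA replicate 3), with Far2, which makes fatty alcohols, at 5.88 ± 2.21 in WT OXA and 221 ± 66.0 in Il13ra1-/- OXA (5.03 ± 0.39, adjusted p = 1.45e-08). The median of that list turned from 0.38 to -0.01 with equal totals, where 10 were higher and 7 lower.

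**Figure D4:**
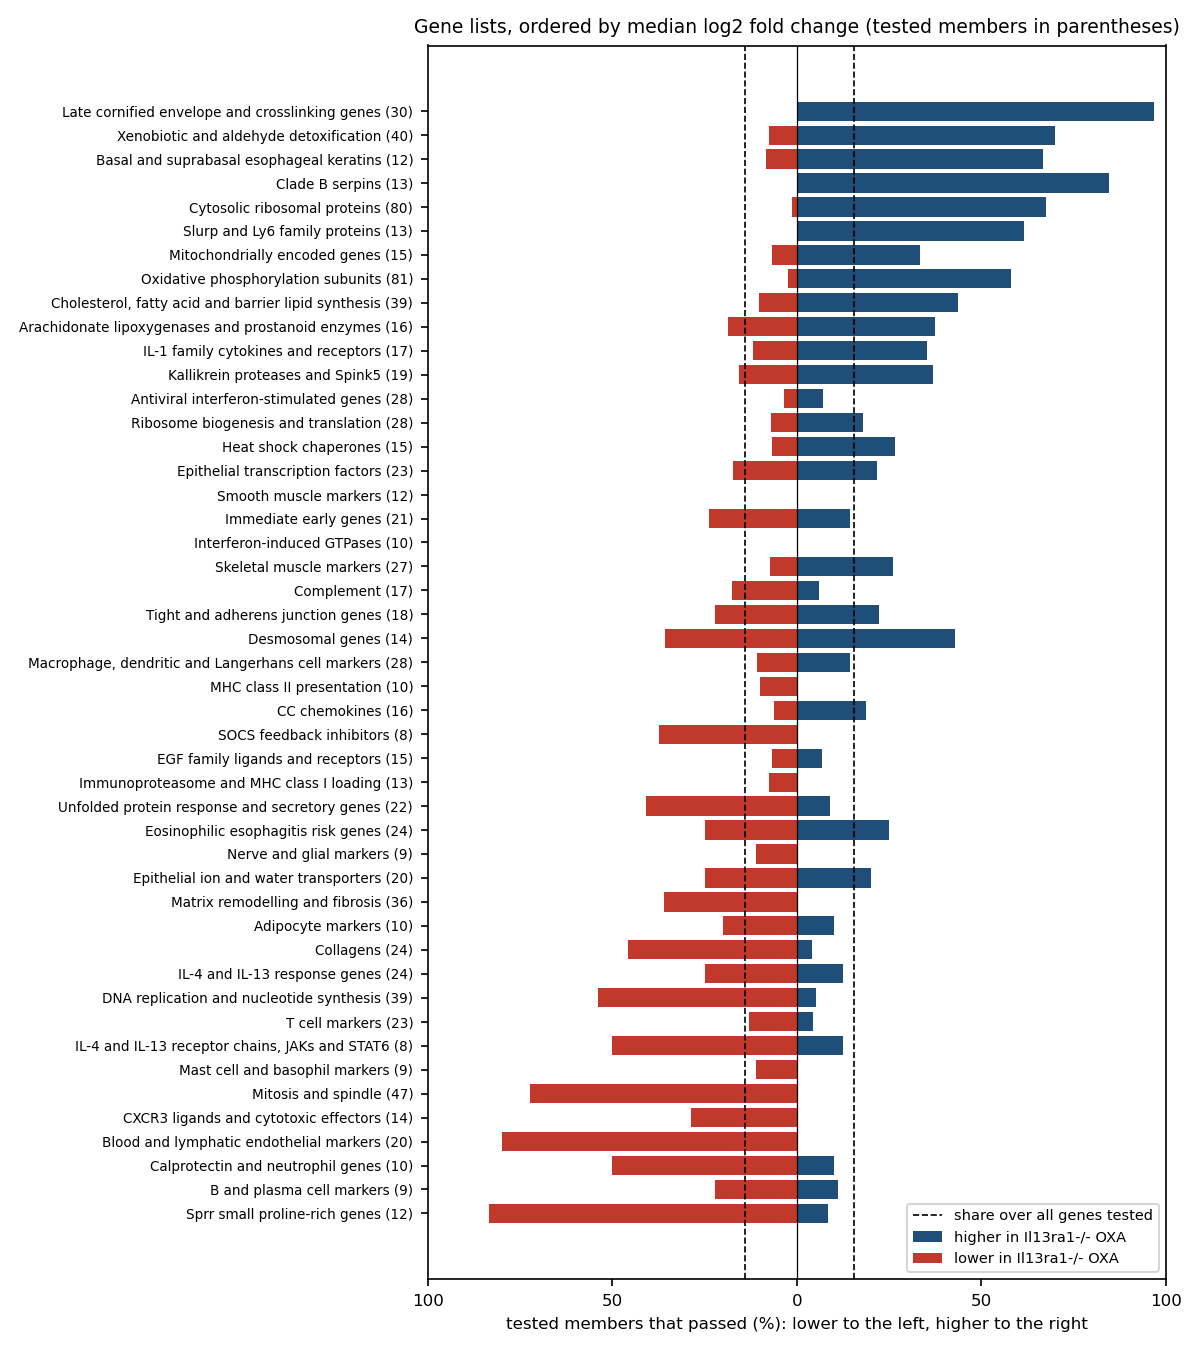
Share of tested members that were higher (blue, to the right) or lower (red, to the left) in Il13ra1-/- OXA than in WT OXA, for the 47 gene lists with 8 or more tested members, ordered by median log2 fold change. Dashed lines mark the shares over all 15745 genes, 15.6% higher and 14% lower.

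Genes of the dividing cell were lower. Of 47 mitosis and spindle genes, 34 were lower and 0 higher (median -1.27). Of 39 replication and nucleotide synthesis genes, 21 were lower and 2 higher (median -0.86). Rrm2, the ribonucleotide reductase subunit made in S phase, was at 3539, 3496, 4319 and 4438 in WT OXA and at 431, 650.1, 384 and 340.4 in Il13ra1-/- OXA (-3.16 ± 0.21, adjusted p = 1.1e-09). Knl1, which docks spindle checkpoint proteins at kinetochores, was at 368 ± 174 in WT OXA and 70 ± 31.8 in Il13ra1-/- OXA (-2.39 ± 0.44). Mki67, the proliferation marker, was at 1013, 1094, 1583 and 2099 and 209, 647, 644 and 769 (-1.44 ± 0.33, adjusted p = 0.00246), with Il13ra1-/- replicate 1 well below the others. Pcna stood at -0.19 ± 0.20, adjusted p = 0.514 (-0.60, adjusted p = 0.019, with equal totals), and the 2 higher members were Gins2 (1.19 ± 0.32) and Prim1 (0.79 ± 0.18, but 0.38 with an adjusted p of 0.106 at equal totals). In whole tissue, fewer cells of a kind and less RNA per cell cannot be told apart, here and in the groups that follow.

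Ribosomal protein genes were mostly higher: 54 of 80 passed as higher and 1, Rplp2, as lower (median 0.96, and 0.54 with equal totals). With quantile normalization 41 were higher and 5 lower, and in 35 of the 80 the groups did not overlap. Their mean log2(value + 1) was 11.6, 11.8, 11.9 and 12.2 in WT OXA and 13.4, 12.7, 12.8 and 12.1 in Il13ra1-/- OXA. Replicate 4 of Il13ra1-/- OXA thus lay within the WT OXA range, and without it 68 were higher. Rpl10a, with the largest rise, was at 4169 ± 946 in WT OXA and 21569 ± 10766 in Il13ra1-/- OXA (2.25 ± 0.29, adjusted p = 9.45e-06), and Rpl4, with the highest mean in Il13ra1-/- OXA, at 38395 ± 8522 in WT OXA and 99488 ± 17368 in Il13ra1-/- OXA (1.38 ± 0.27, adjusted p = 0.000664). Many ribosomal genes have processed copies elsewhere in the genome that can take their reads. Of 81 nuclear oxidative phosphorylation subunits, 47 were higher and 2 lower (median 0.58), but 25 and 8 with equal totals. Both lists moved beside the mitochondrial rRNA share given above, whose part in them was not tested. Of 22 genes of the unfolded protein response and secretion, 9 were lower and 2 higher (15 and 0 with equal totals, and 9 and 1 without the 2 gene-rich libraries). Pdia4 and Hsp90b1, chaperones of the endoplasmic reticulum, were lower (-1.31 ± 0.21 and -0.93 ± 0.19), while Hspa5, another, stood at 0.36 ± 0.18 (adjusted p = 0.14) and at -0.05 under both other scalings.

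Stromal genes were lower. Of 24 collagens, 11 were lower and 1 higher (median -0.76; 17 lower with equal totals). Col1a1, of fibrillar collagen I, was at 4360.4, 3594, 4066 and 4073 in WT OXA and 2077, 1324, 1717 and 1202 in Il13ra1-/- OXA (-1.38 ± 0.26, adjusted p = 0.000471). Col17a1, the hemidesmosomal collagen of basal keratinocytes, was the member that rose (1.44 ± 0.21, adjusted p = 3.69e-05). Of 36 matrix remodelling genes, 13 were lower and 0 higher (24 lower with equal totals). Lox, which crosslinks collagen, fell from 168 ± 36.8 in WT OXA to 32.1 ± 9.46 in Il13ra1-/- OXA (-2.37 ± 0.54, adjusted p = 0.0026), and Timp1, an inhibitor of matrix proteases, fell as well (-2.33 ± 0.51). Of 20 endothelial markers, 16 were lower and 0 higher (median -1.59), with summed levels from 4824 to 8326 in WT OXA and from 2564 to 3747 in Il13ra1-/- OXA. Selp, the adhesion receptor that lets leukocytes roll, was at 71.3 ± 12.4 in WT OXA and 11 ± 13.5 in Il13ra1-/- OXA (-3.26 ± 0.75, adjusted p = 0.00281). Plvap, of capillary diaphragms, was at 780.0 ± 177 in WT OXA and 177 ± 57.3 in Il13ra1-/- OXA (-2.16 ± 0.33), whereas Lyve1, of lymphatic vessels, stood at -0.21 ± 0.21, adjusted p = 0.495 (-0.62, adjusted p = 0.0432, with equal totals).

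Few interferon-driven genes passed between the genotypes. Of 10 interferon-induced GTPases, 0 passed in limma (0 at an unadjusted p under 0.05, 0 with edgeR and 1 with DESeq2), with a median of 0.01 (-0.40 with equal totals). Gbp2, a guanylate-binding protein, was at 1196, 1109, 1311 and 1680.0 in WT OXA and 3489, 2152, 1068 and 2355 in Il13ra1-/- OXA (0.67 ± 0.32, adjusted p = 0.128). WT OXA was the tighter group, and without Il13ra1-/- OXA replicate 3, the lowest library, Gbp2 was higher in Il13ra1-/- OXA by 0.99 (adjusted p = 0.0214). That a difference did not pass does not show equal levels. Of 28 antiviral interferon-stimulated genes, 2 were higher (4 without Il13ra1-/- OXA replicate 3 or WT vehicle replicate 1) and 1 lower, with a median of 0.25 that turned to -0.16 with equal totals. Irf9, part of the interferon transcription complex, was higher (1.40 ± 0.20, adjusted p = 3.63e-05). Of 13 immunoproteasome and class I loading genes 1 was lower, Tap2, a peptide transporter subunit, at 1566, 1191, 1523 and 1468 and 425, 426, 313 and 683 (-1.68 ± 0.26, adjusted p = 8.75e-05), while Tap1, its partner, stood at -0.48 ± 0.33, adjusted p = 0.301. Of 10 class II genes 1 was lower, H2-DMb1 (-1.16 ± 0.29, adjusted p = 0.00521), and H2-Ab1 stood at -0.43 ± 0.25, adjusted p = 0.215. With equal totals, 5 class I and 5 class II genes were lower, among them Tap1 (-0.89, adjusted p = 0.0438) and H2-Ab1 (-0.84, adjusted p = 0.015). With quantile normalization, 3 class I and 3 class II genes were lower, H2-Ab1 among them (-0.93, adjusted p = 0.00732).

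Most of these genes were above the vehicle level of their own genotype. Of the GTPases, 10 of 10 rose with OXA in WT and 9 of 10 in Il13ra1-/-. For the antiviral genes the counts were 25 and 23 of 28, for the class I genes 11 and 13 of 13, and for the class II genes 9 and 8 of 10. In WT vehicle, replicate 1 had the highest mean log2(value + 1) for each of these lists. Its level was 7.39 against 5.57 to 6.46 in the others for the GTPases, and 7.52 against 5.61 to 6.18 for the antiviral genes. The WT rises are relative to a baseline that includes this library. Cxcl9, a chemokine induced by interferon gamma, was at 590.1, 554, 528 and 861 in WT OXA and 647, 655, 105 and 390.0 in Il13ra1-/- OXA (-0.77 ± 0.46, adjusted p = 0.224), and rose from vehicle by 4.43 and 5.38 (adjusted p of 7.28e-07 and 2.59e-06). The mean log2(value + 1) of the 13 class I genes was 10.4, 10.4, 10.4 and 10.7 in WT OXA and 10.8, 10.3, 9.38 and 10.3 in Il13ra1-/- OXA, with replicate 1 highest and replicate 3 lowest. Replicate 3 also had the lowest T cell level (5.83, 5.11, 3.70 and 5.22 in the 4 libraries, against 5.85, 6.12, 5.82 and 6.04 in WT OXA).

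**Figure D5:**
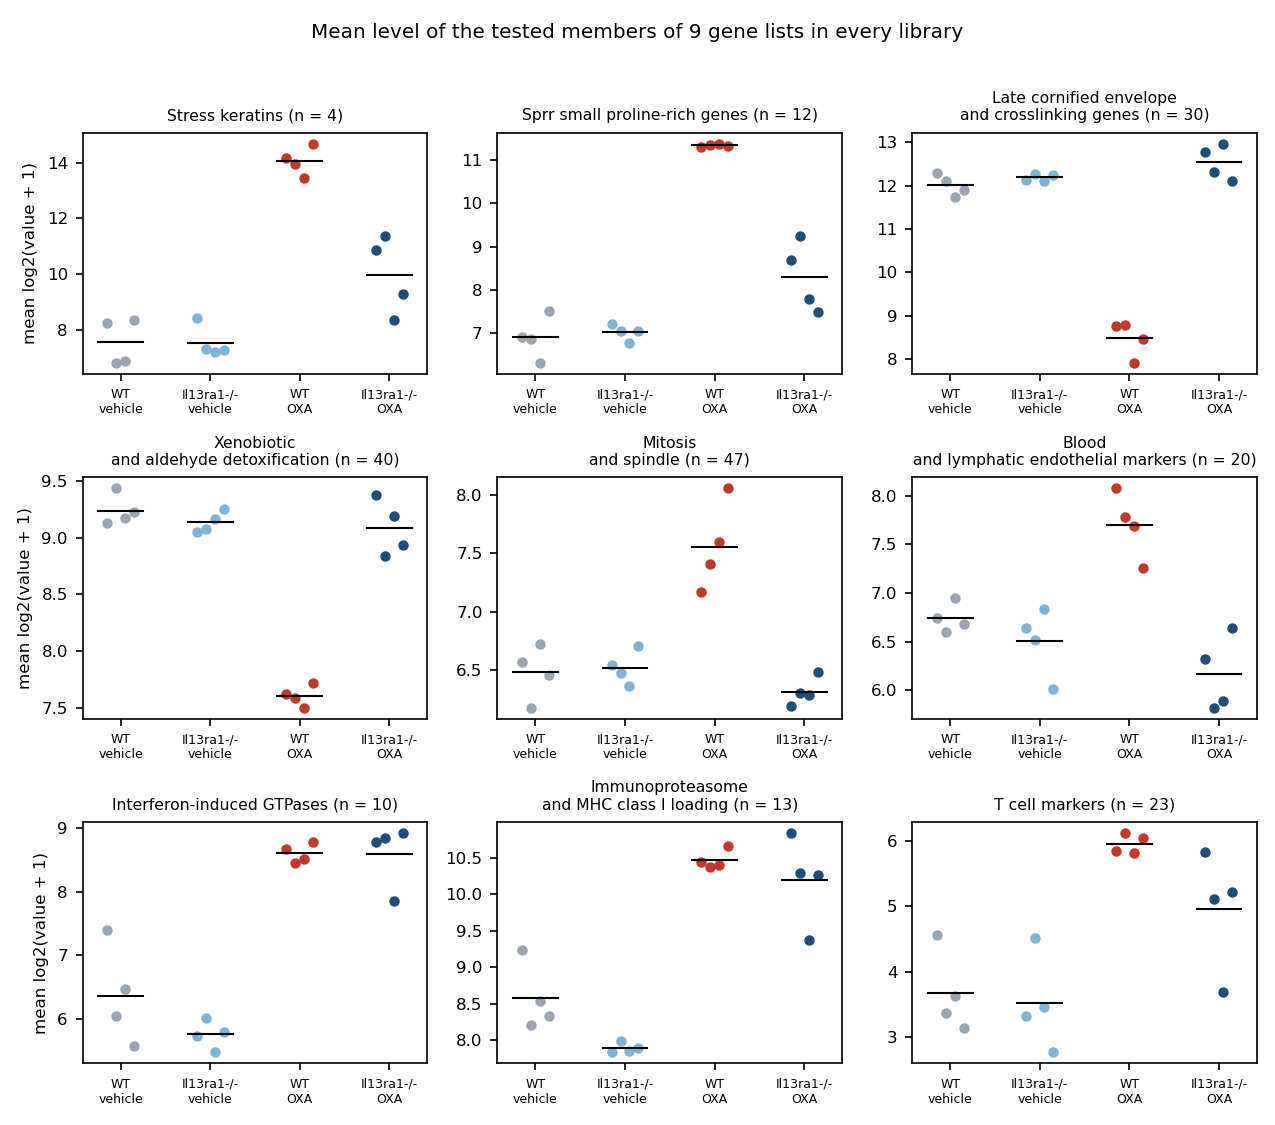
Mean log2(value + 1) of the tested members of 9 gene lists in every library (vertical axis), by group; points are libraries and bars their mean. In stress keratins, Sprr, mitosis and endothelial genes WT OXA stands above the other groups, in the cornified and detoxification genes it stands below them, and in the interferon, class I and T cell lists both OXA groups stand mostly above vehicle.

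Genes of leukocytes gave mixed results. Of 23 T cell markers, 3 were lower and 1 higher (median -0.93), with summed levels from 2331 to 2889 in WT OXA and from 1225 to 2904 in Il13ra1-/- OXA. Cd8a was at 48.4 ± 17.7 in WT OXA and 8.89 ± 9.0 in Il13ra1-/- OXA (-2.97 ± 0.82, adjusted p = 0.00973) and Trbc2 at 525 ± 86.3 in WT OXA and 539 ± 391 in Il13ra1-/- OXA (-0.29 ± 0.58, adjusted p = 0.746). The sign of Trbc2 turned in 5 alternatives (0.01 to 0.09). The count of lower T cell markers was 1 without any single WT OXA library, Il13ra1-/- OXA replicate 3 or the 2 gene-rich libraries, 6 with thinned reads and 8 with equal totals. Of 14 CXCR3 ligands and cytotoxic genes, 4 were lower and 0 higher (1 or 2 lower without any single WT OXA library, 1 without Il13ra1-/- OXA replicate 3, 2 without the 2 gene-rich libraries), among them Tbx21, the type 1 transcription factor (-3.39 ± 0.88, adjusted p = 0.00669). Gzmb stood at -0.08 ± 0.88, adjusted p = 0.96, with a sign that turned in 4 alternatives (0.12 to 0.51). Of 10 neutrophil and calprotectin genes, 5 were lower and 1 higher: Cxcl2, a neutrophil attractant, was at 42.8, 15.4, 64.7 and 114 and 0, 3.57, 0 and 10.2 (-4.17 ± 1.04, adjusted p = 0.00472; 0.155 with DESeq2), and S100a9 was at 2351 ± 352 in WT OXA and 889 ± 627 in Il13ra1-/- OXA (-1.73 ± 0.45). Of 28 macrophage and dendritic cell markers, 4 were higher and 3 lower (median -0.22). With equal totals 2 were higher and 11 lower, and with thinned reads 2 and 7. Here 2 were higher without WT OXA replicate 1 or Il13ra1-/- OXA replicate 1, 2 or 3, and 5 lower without Il13ra1-/- OXA replicate 2. Cd207, langerin, which defines Langerhans cells, had 0 reads in WT OXA and 18.3, 26.2, 6.19 and 6.30 in Il13ra1-/- OXA (adjusted p = 0.000624). Cd207 entered the test through the Il13ra1-/- OXA libraries alone.

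Eosinophils, the cells that define the disease, were read through few genes. Epx, eosinophil peroxidase, is listed at 0 in all 16 libraries and, like Il2rg, gives no level. Ccr3, the eotaxin receptor, averaged 4.34 in WT OXA and 2.14 in Il13ra1-/- OXA and was not tested. Of 14 listed eosinophil markers, 5 were tested and 2 were lower: the ribonuclease genes Ear2 (69.0 ± 28.9 in WT OXA and 17.2 ± 10.6 in Il13ra1-/- OXA, -2.03 ± 0.54, adjusted p = 0.00766) and Ear6 (62.1 ± 20.9 in WT OXA and 18.8 ± 15.8 in Il13ra1-/- OXA, -1.98 ± 0.52, adjusted p = 0.00702), which are near-copies of other family members. The 5 summed to 176 to 267 in WT OXA and from 85.4 to 156 in Il13ra1-/- OXA. With quantile normalization 1 was higher and 2 lower, and with equal totals 0 and 3. The higher gene was Alox5 (1.14, adjusted p = 0.0412), which also passed with thinned reads (1.02, adjusted p = 0.0486) and without WT vehicle replicate 1 (1.01, adjusted p = 0.0453). Cd300lf passed as lower with equal totals, a pseudocount of 5, DESeq2 and the 8 OXA libraries alone (-1.62, adjusted p = 0.0291, in the last). Neither gene passed in the main fit. Among chemokines, Ccl12 was higher without Il13ra1, at 17.4, 24.6, 23.1 and 21.6 and 154, 169, 109 and 73.3 (2.43 ± 0.51, adjusted p = 0.00128), as was Ccl20, the ligand of Ccr6, at 5.44, 1.03, 0 and 0 and 51.3, 39.3, 14.8 and 5.52 (3.51 ± 1.01, adjusted p = 0.0123). The Ccl20 groups came close, at 5.44 in WT OXA replicate 1 and 5.52 in Il13ra1-/- OXA replicate 4. Of 24 mouse counterparts of eosinophilic esophagitis risk genes tested, 6 were higher and 6 lower. With equal totals 3 were higher and 11 lower, and 3 were lower without any single WT OXA library or Il13ra1-/- OXA replicate 2 or 3.

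Matches to the Stat6-type motif were about as frequent in the promoters of genes that passed as in those of all tested genes. In 14979 promoters of 11725 tested genes, 250 bases before to 50 after the start, 5.67% held the Stat6-type motif, against 5.41% for genes lower in Il13ra1-/- OXA and 5.70% for genes higher. Among genes at least 4-fold lower the share was 8.73% (20 of 229 promoters), and among those at least 4-fold higher 7.63% (19 of 249). The GAS-type motif was in 6.85% of all promoters, in 6.96% of the lower and 6.61% of the higher genes, and it can overlap the Stat6-type motif. The interferon-type motif was in 3.22%, 2.37% and 3.24% of these 3 sets. The AP-1-type motif was in 5.85% of all, in 5.46% of the lower and 7.40% of the higher genes, in 7.86% of those at least 4-fold lower and in 12.4% (31 of 249) of those at least 4-fold higher. These shares are descriptions, and family members with like promoters are counted singly.

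Genes around the deleted locus passed about as often as all genes. Of 26 tested genes within 5 Mb of Il13ra1 on chromosome X, 6 were higher and 2 lower (30.8%, against 29.6% of all genes), and 28.6% of the 476 tested X-linked genes passed. The nearest that passed, Pgrmc1, lies 0.43 Mb away (0.42 ± 0.15, adjusted p = 0.0446, a call lost under 17 alternatives, with 0.01 at equal totals), and Slc25a5, a mitochondrial ADP/ATP carrier 0.62 Mb away, was higher by 1.30 ± 0.26 (adjusted p = 0.000805). Under vehicle 0 of the 26 passed.

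Of the 9 genes that differed between the genotypes under vehicle, 7 differed under OXA in the same direction. Mmrn1, multimerin 1 (GRCm38 chromosome 6, 60924976 to 60989378), was at 0 in the 4 WT OXA libraries, at 0, 15.4, 0 and 2.23 in WT vehicle, and at 12.8, 72.6, 121 and 129 in Il13ra1-/- OXA. A C57BL/6 substrain that lacks Mmrn1 is known, and a difference of substrain between the groups cannot be told apart from the genotype in this design. Gm15446, a predicted zinc finger gene, was at 59.5, 45.2, 52.6 and 70.2 in WT OXA and at 5.5, 4.76, 3.71 and 11.8 in Il13ra1-/- OXA (-3.05 ± 0.54). Dynlt1a, a dynein light chain, Cd59a, a complement inhibitor, and Rnf167, a ubiquitin ligase, were higher, by 1.21 ± 0.18, 0.97 ± 0.19 and 1.36 ± 0.22. Acsm3 and Cyp2ab1, which differed under vehicle, stood at 1.14 ± 0.72 and 0.04 ± 0.51 under OXA, with overlapping groups. Acsm3 passed as higher with edgeR (2.21, adjusted p = 0.0321), DESeq2 (adjusted p = 0.0116) and quantile normalization (1.92, adjusted p = 0.0449), and the sign of Cyp2ab1 turned with equal totals (-0.35).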

How the data were processed

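CEL-Seq libraries of mouse esophagus were deposited by the authors as 1 table of signal values, that is, read counts per gene divided by 1 size factor per library. The processing notes of the submitters name FastQC 0.11.5, Trim Galore, cutadapt 1.10, TopHat2 2.1.0, Bowtie2 2.2.6, HTSeq 0.6.1, DESeq2 1.28.0 and the build GRCm38, with no order. The annotation release, and how molecular identifiers, strand and multiply mapped reads were treated (not given in the sources used here), could change counts: overlapping, antisense and near-identical genes may share reads. The deposited coordinates were used for positions. Whole reads were recovered from the steps between low values, with all values whole within a tolerance of 0.1 read, and gave the depth of each library.

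Genes that reached a value of 5 in 4 or more of the 8 OXA libraries were tested on log2(value + 1) with limma 3.58.1 (R 4.3.3), with 4 group means over all 16 libraries, which share 1 estimate of the spread, and a trend of variance with level. P-values were two-sided and adjusted over 15745 genes by Benjamini-Hochberg, with a threshold of 0.05. A fold change on this scale understates the change of low genes. For genes at 0 in all 4 libraries of a group, or with 3 reads or fewer there, reads are given and no fold. Recovered reads were tested with edgeR 4.0.16 (quasi-likelihood) and DESeq2 1.42.0, which called 4844 (30.8%) and 5396 (34.3%) genes. Other alternatives were pseudocounts of 0.5 and 5, no filter, a filter at 20, equal library totals, quantile normalization, array weights, the 8 OXA libraries alone, and each library left out. After the data had been seen, reads thinned to the shallowest OXA library were added, fitted on the 8 OXA libraries alone. A fit without Il13ra1-/- OXA replicate 4 and WT OXA replicate 1 was added then too. The procedure was tested on simulated data.

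Named genes were the 14 of largest rise and the 14 of largest fall among those that passed, did not overlap and reached a mean of 10 in the higher group, passing over predicted genes. To these were added up to 4 members with the smallest p of each gene list, and a set named whatever their values. Aldh1a3, Arg1, Ccl8, Cdh1, Dsg3, Gins2, Gzmb, Hspa5, Il1rl2, Jak1, Jak2, Klk7, Knl1, Lce3c, Lce3d, Lox, Ly6d, Lyve1, Mgl2, Mrc1, Pcna, Pgrmc1, Plvap, Prim1, Rpl4, Rplp2, Selp, Serpinb2, Slc25a5, Sox2, Sprr1b, Sprr3, Tgm1, Tgm3, Trbc2 and Trp63 were named beyond that rule, as were the genes that passed under vehicle, after their values had been seen. The compared genes and the lists were chosen with earlier results of these data known. Some genes that enter the counts are not reported here by name.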

Additional observations from a re-analysis of the deposited data

Results flagged for a closer look

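Among 48 genes checked, the genotype difference under OXA differed from that under vehicle in 34, by the interaction term of the limma fit (adjusted p at most 0.036), against 19.2% of all genes. Many of the 48 had been chosen for a large difference under OXA, so the count is no independent measure. Values are the log2 difference under OXA minus that under vehicle. In the IL-13 receptor and its feedback these were -1.93 for Il4ra, 0.88 for Stat6 and -1.75 for Socs1. Among IL-13-associated products and other genes high in WT OXA they were -5.95 for Chil4, -6.36 for Alox15, -5.71 for Gsdmc2, -5.65 for Igha and -3.64 for Mlph. Alox12e, Il19 and Mrgprg, which were lower in Il13ra1-/- OXA, had 3 reads or fewer in at least 1 group. Their adjusted p alone are given: 0.00163, 0.0017 and 0.000894. Serpinb13, which was higher in Il13ra1-/- OXA, had as few reads in WT OXA, and its adjusted p was 4.86e-08. Keratins and Sprr genes gave -4.36 for Krt6a, -5.24 for Krt16, -1.41 for Krt14, -5.16 for Sprr2a3, -3.28 for Sprr2d, -6.15 for Sprr2e and -6.04 for Sprr2f. The proliferation marker Mki67 gave -2.23.

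Cornified layer genes differed in the other direction. The values were 7.80 for Flg, 2.14 for Lor, 6.22 for Lce1h, 6.96 for Lce1j, 7.48 for Lce1k, 6.71 for Lce1l and 7.14 for Lce1m. Secreted and membrane proteins gave 6.5 for Slurp1, 8.05 for Slurp2, 6.41 for Klk5, 6.34 for Skint6, 5.74 for Lyg1, 7.32 for Dapl1 and 7.88 for Tmem45a2. With equal library totals, interaction calls over all genes shifted to 897 upward and 3542 downward.

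In 9 of 96 groups of 4 libraries, 1 library lay far from the other 3 by Dixon's criterion, which chance alone exceeds in about 1 group of 20. That rate does not hold where the other 3 libraries held no reads, since any read then sets a library apart. This was so for Serpinb13 in WT OXA and for Mrgprg and Il13ra2 in Il13ra1-/- OXA. WT OXA replicate 1 was apart for Ccl11 (515, below the others), Serpinb13 (1.09) and Skint6 (23.2), both above the others. WT OXA replicate 2 was below the others for Socs1 (658). Il13ra1-/- OXA replicate 1 was above the others for Krt14 (5701) and Sprr2a3 (864) and below them for Mki67 (209). Il13ra1-/- OXA replicate 3 held the reads of Mrgprg (2.48), and replicate 4 those of Il13ra2 (6.30).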

How the results depend on the processing

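No paired analysis was possible because the labels number no replicates: the digit in a library code recurs within a group, and nothing ties libraries of different groups by it. With equal library totals, 1259 genes were higher and 5162 lower between the OXA groups in place of 2456 and 2206, and the interaction gave 897 and 3542 in place of 1717 and 1300. Leaving out 1 library at a time gave 3661 to 5110 genes between the OXA groups (2042 to 2629 higher, 1619 to 2481 lower) and 2274 to 3515 for the interaction (1382 to 1951 upward, 892 to 1564 downward). Every other alternative kept these counts within 1.5 times. Of 277 named genes tested, 219 passed, and none of those 219 changed sign under any alternative run. At most 17 lost their call in 1 fit, that without WT OXA replicate 1 or 3. Signs turned for 10 genes that had not passed. Krt5 was at -0.32 with equal totals, -0.58 with quantile normalization (adjusted p = 0.0487) and -0.09 without Il13ra1-/- OXA replicate 4 and WT OXA replicate 1, and between -0.03 and 0.22 with 1 library left out. Retnla was at -0.69 with quantile normalization (adjusted p = 0.0329) and between -0.34 and 0.13 with 1 library left out. Eif2s3y was at 0.00 with array weights and between -0.28 and 0.06 with 1 library left out. With equal totals and quantile normalization, Jak1 was at -0.23 and -0.07, Jak2 at -0.39 and -0.02 (-0.02 with thinned reads) and Hspa5 at -0.05 and -0.05. With edgeR and DESeq2, Gzmb was at 0.17 and 0.19 and Trbc2 at 0.02 and 0.04 (0.06 without both gene-rich libraries). Cyp2ab1 was at -0.35 with equal totals and -0.02 with array weights. With 1 library left out, Jak1 was between 0.10 and 0.29, Jak2 between -0.05 and 0.08, Hspa5 between 0.18 and 0.51, Gzmb between -0.47 and 0.51, Trbc2 between -0.69 and 0.09, Cyp2ab1 between -0.22 and 0.32 and Mrc1 between -0.41 and 0.00. The cause was not tested. Depth was lower in Il13ra1-/- OXA than in WT OXA, so genes with few reads were read less precisely there.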

Other observations

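Other gene groups also held genes that passed. The share was 23.5% for complement genes and 11.1% for mast cell and basophil markers, below the 29.6% of all genes. It was 33.3% for B and plasma cell markers, 45.0% for ion and water transporters and 40.0% for mitochondrially encoded genes. Of 17 complement genes, 3 were lower and 1 higher (6 and 0 with equal totals, 2 in each direction without the 2 gene-rich libraries). C3, the central component, was at 2501 ± 242 in WT OXA and 1094 ± 412 in Il13ra1-/- OXA (-1.26 ± 0.20, adjusted p = 0.000101), and C1qb, made by macrophages, at 1788 ± 175 in WT OXA and 3327 ± 1651 in Il13ra1-/- OXA (0.79 ± 0.24, adjusted p = 0.0191). The call of C1qb was lost with equal totals (0.38, adjusted p = 0.178), with quantile normalization (0.52, adjusted p = 0.0608) and without WT OXA replicate 3 or Il13ra1-/- OXA replicate 1. Among 9 markers of B and plasma cells, 2 were lower and 1 higher. Besides Igha, the lower gene was Jchain, the joining chain of IgA and IgM, at 1064 ± 304 in WT OXA and 529 ± 932 in Il13ra1-/- OXA (-2.84 ± 1.0, adjusted p = 0.0375), a call lost under 12 alternatives. Without the 2 gene-rich libraries 1 of the 9 was lower and 0 higher, and 1 was lower without any other single OXA library than Il13ra1-/- OXA replicate 2. Without that one 5 were lower: its mean log2(value + 1) over the 9 markers was 7.63, against 3.89 to 4.87 in the other Il13ra1-/- OXA libraries. Of 9 mast cell and basophil markers 1 was lower, Kit, the receptor for stem cell factor (-1.38 ± 0.46, adjusted p = 0.0275), a call lost under 7 alternatives. The count was 3 with equal totals and without Il13ra1-/- OXA replicate 2, and 0 without WT OXA replicate 1, 2 or 3 or Il13ra1-/- OXA replicate 3. Of 20 ion and water transporters, 5 were lower and 4 higher (8 and 3 with equal totals, and 3 lower without WT OXA replicate 3 or 4 or Il13ra1-/- OXA replicate 2). Among them Aqp3, a water and glycerol channel of keratinocytes, was at 6867 ± 1419 in WT OXA and 3207 ± 483 in Il13ra1-/- OXA (-1.08 ± 0.18, adjusted p = 0.000168), and Car12, a membrane carbonic anhydrase, was higher (1.71 ± 0.18, adjusted p = 6.33e-07). Of 15 mitochondrially encoded genes, 5 were higher and 1 lower (1 and 2 with quantile normalization), beside the higher share of mitochondrial rRNA in the same libraries, whose part in this was not tested.

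Stress, translation, nerve and fat cell genes were examined as well. Of 15 heat shock chaperones, 4 were higher and 1 lower (2 and 4 with equal totals and with quantile normalization), with a median of 0.15 that turned to -0.26 with equal library totals. Of 21 immediate early genes, 3 were higher and 5 lower (1 and 6 with equal totals, 3 and 3 without the 2 gene-rich libraries), with a median of 0.07 that turned to -0.34 with equal totals and to -0.02 with quantile normalization. Of 28 genes of ribosome biogenesis and translation, 5 were higher and 2 lower, which became 1 and 9 with equal totals and 5 and 0 without the 2 gene-rich libraries, with a median of 0.20 that turned to -0.21. Of 9 nerve and glial markers 1 was lower (4 with equal totals), and of 10 adipocyte markers 2 were lower and 1 higher (4 and 1 with equal totals, 1 and 1 without the 2 gene-rich libraries). Of 3 thyroid and stomach markers tested, 0 passed.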
